A study of Homo sapiens with 6 samples.

Results

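The insulin-like growth factor (IGF) axis was described in RH36, an embryonal rhabdomyosarcoma cell line that does not carry the PAX3/FOXO1 translocation. Its members were taken by name: every probe whose gene name on the array was IGF1, IGF2, IGF1R, IGF2R, INSR, IGFBP2, IGFBP3, IGFBP4, IGFBP5 or IGFBP6. This gave 10 genes, read by 20 of the 41000 probes on the array. The probes of the whole array were assigned to 17843 genes. Cells received either a pre-miR-27a precursor, a synthetic RNA that raises the level of mature miR-27a (3 arrays), or a non-targeting pre-control precursor (3 arrays). The labels give 10 nM and a lipid reagent for the transfections, and place the pre-miR-27a samples at 48 h. The methods of the study state another concentration and reagent and an earlier time for its expression assays, so the conditions behind the arrays stay uncertain. The labels number the 3 samples of each group as biological replicates. All came from 1 cell line, so the spread between them is that of transfections of this line and not of tumours.

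The ligands IGF1 and IGF2 act through the receptor tyrosine kinase IGF1R, which drives the PI3K, AKT and mTOR pathway and cell growth. IGF2R takes up IGF2 for degradation in lysosomes, INSR binds insulin and, in one of its forms, IGF2, and the IGF binding proteins hold the ligands in the extracellular fluid and set how much reaches the receptors. In embryonal rhabdomyosarcoma the imprinted IGF2 locus is known for high IGF2 expression. A microRNA lowers the mRNAs that carry sites paired with its seed, and the comparison of the transfections asked which mRNAs changed when miR-27a was raised.

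The mature miR-27a sequences are shown because the transfected precursor is the only designed difference between the groups, and miR-27b-3p because it has the same seed. They are RefSeq sequences with GRCh38.p14 positions, written 5′ to 3′, with the seed (bases 2 to 8) in capitals.
hsa-miR-27a-3p: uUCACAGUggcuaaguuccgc
hsa-miR-27a-5p: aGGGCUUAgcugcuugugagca
hsa-miR-27b-3p: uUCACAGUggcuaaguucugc
The miR-27a-3p sequence lies at chr19:13836447-13836467 on the minus strand and miR-27b-3p at chr9:95085505-95085525 on the plus strand. They differ at 1 base, C19U, counted from the 5′ end of miR-27a-3p, outside the seed. An mRNA site that pairs with the whole miR-27a-3p seed reads ACTGTGA in DNA letters. The members' transcripts were not searched for it, and the level of miR-27a itself was not analysed here.

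Each array held 43376 spots. Between 69.9% and 73.9% of them were well above background on the pre-control arrays, and between 74.1% and 78.0% on the pre-miR-27a arrays. Spots marked not found, which were set to missing, were more frequent on the pre-miR-27a arrays. They numbered 3487 to 4153 there and 1559 to 1750 on the pre-control arrays. Local background was lower in the pre-miR-27a group (medians of 52.5 to 53 intensity units, against 74.5 to 76), and no spot was saturated. The 3 pre-control samples shared slide 1 and the 3 pre-miR-27a samples slide 2, and an effect of the slide cannot be told apart from one of the transfection in any difference below. Of 10 muscle lineage markers, 9 were kept and all 9 were well above background on all 6 arrays (MYF5 was not kept). Their adjusted p-values in limma ran from 0.0561 to 0.985, so none was called. All but CHRND and MYH3 had a lower mean with pre-miR-27a. The largest log2 fold changes were −0.95 for MYOG (SE 0.32), −0.45 for MYOD1 (SE 0.12) and −0.35 for CDH15 (SE 0.08). Of 12 markers of leukocytes, endothelium, epithelium and liver, 11 were kept and 5 (PTPRC, PECAM1, EPCAM, CDH1 and APOA1) were well above background on no array. CD3E, ITGAM and VWF were well above background on all arrays, and CD3E was lower with pre-miR-27a (log2 fold change −0.44, limma adjusted p = 0.0348). Its part in the results was not tested.

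Values below are quantile-normalised log2 intensities. They compare the same probe between arrays and not one gene with another, because probes differ in brightness at the same amount of mRNA. Of the 20 member probes, 18 passed the filter for detected spots. Of the 20, 15 were well above background on all 6 arrays and 4 on none. A probe printed in several spots counts as well above background on an array when most of its spots are. A gene is given by its reference probe, the brightest over the 6 arrays, and is called when the adjusted p over all 36469 probes kept is under 0.05.

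Of the 10 genes, 1 was called by its reference probe. IGFBP6 was lower after pre-miR-27a, and 0 were higher. Over all genes by the same rule, 6.65% were called, with 2.61% higher and 4.04% lower. Over the 18 probes kept, 0 were called higher and 1 lower, against 7.83% of all probes (3.95% higher and 3.88% lower, or 1440 and 1416 probes, which became 1275 and 1981 after each array was scaled to its 75th percentile instead). At an unadjusted p under 0.05, 3 member probes were higher and 1 lower, where 11.6% and 13.2% of all probes were. SAM, the test named in the methods, was run here in an unpaired form written out for these data. It called 0 members at a false discovery rate of 1.9% or 5%, where it called 1.3% and 5.72% of the probes it tested. The study describes its SAM as paired and reports more calls at 1.9%. The median log2 fold change was 0.17 over the 18 member probes and −0.08 over the 10 reference probes, beside −0.02 over all probes. The groups did not overlap for 2 member probes that lay higher and 3 that lay lower with pre-miR-27a. Over all probes 32.5% did not overlap, 14.8% higher and 17.8% lower.

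**Figure D1:**
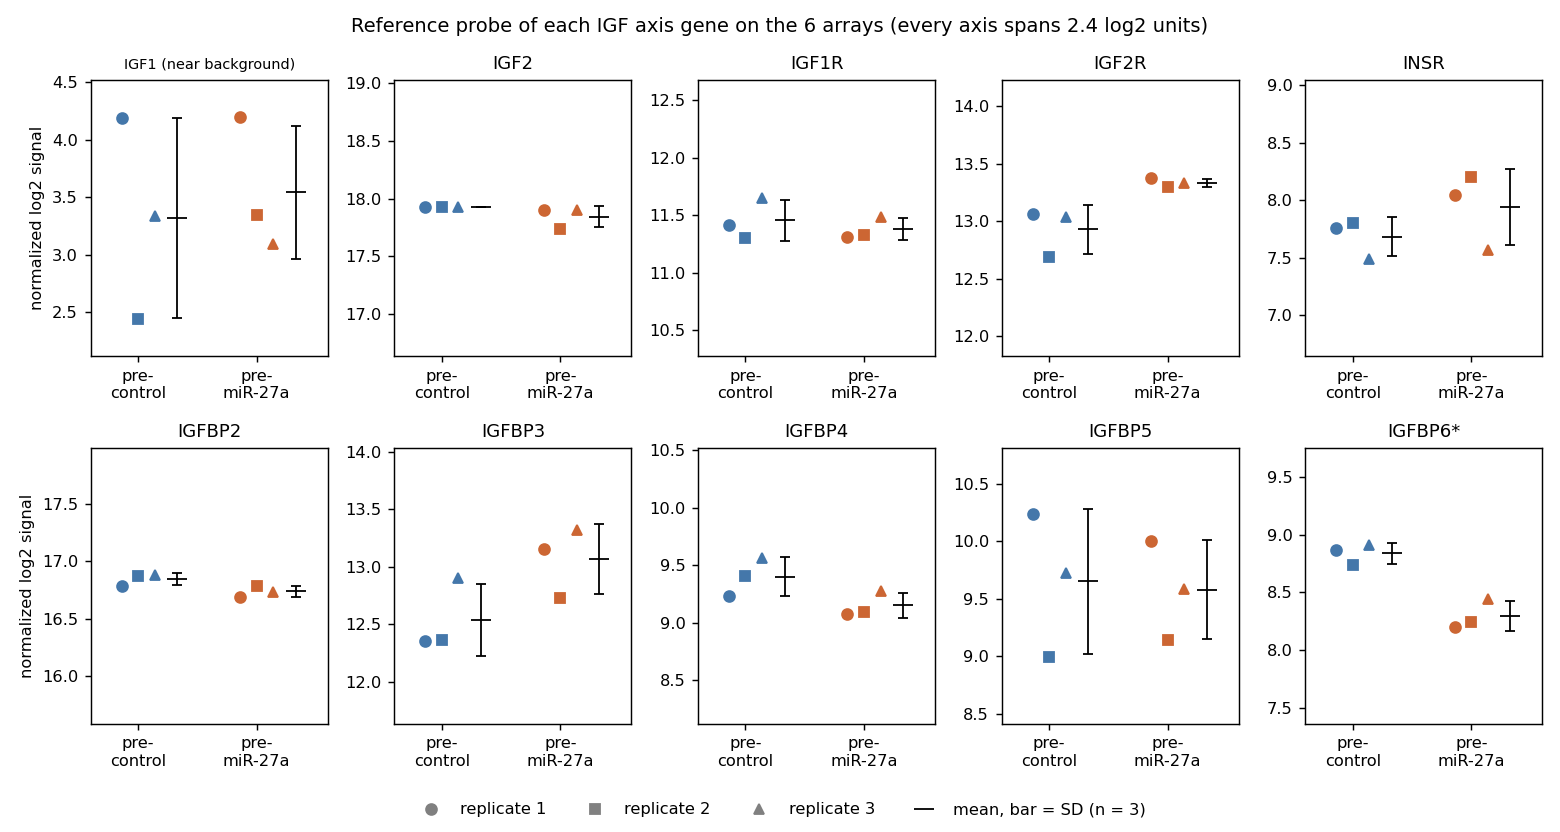
Quantile-normalised log2 intensity of the reference probe of each member gene on each array, one panel per gene, with pre-control (3 arrays) and pre-miR-27a (3 arrays) side by side, a marker shape for each replicate number, and the group mean with its SD. The groups are apart for IGF2R, IGFBP6 (marked with an asterisk, adjusted p = 0.0363) and, by a small margin, IGF2 and IGFBP2, the points of IGFBP5 span the widest range among the genes above background, and IGF2 has the same value on all 3 pre-control arrays.

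**Figure D2:**
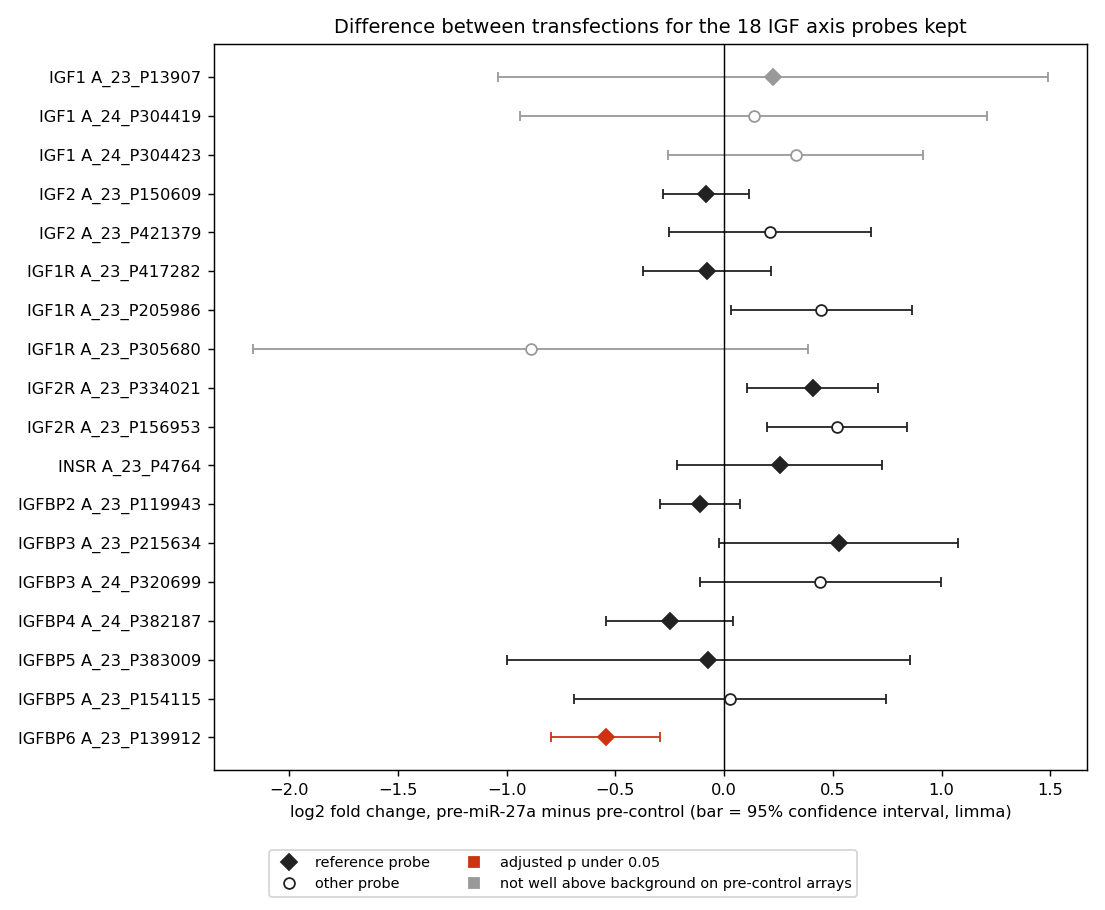
Log2 fold change (pre-miR-27a minus pre-control) of the 18 member probes kept, with 95% confidence intervals from limma; diamonds are reference probes, circles are other probes, and grey marks probes not well above background on the pre-control arrays. Only the IGFBP6 probe passed an adjusted p of 0.05, and the intervals of both IGF2R probes and of 1 IGF1R probe also leave out 0.

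Among the ligands, IGF1, the ligand that mediates much of the action of growth hormone, was at the limit of detection. None of its 4 probes was well above background in most of its spots on a pre-control array, and 1 of them (A_23_P13907) was so on 1 pre-miR-27a array. Of its 10 spots, 1, 0 and 1 were well above background on the pre-control arrays and 8, 3 and 0 on the pre-miR-27a arrays. That probe, which is its reference probe and lies at chr12:101320396-101320455 (hg18), read 4.19, 2.45 and 3.34 on the pre-control arrays and 4.20, 3.34 and 3.10 on the pre-miR-27a arrays. The groups overlapped, and the difference between values so near background is not read as a fold change of the gene. The probe is printed in 10 spots, whose SD within an array was 0.28 to 0.70, so the values carried much spot error. A_24_P398572 was found on 4 of 6 arrays and was removed. For IGF1 the arrays could show neither a level nor a change at this signal.

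IGF2, the fetal growth factor that is imprinted and expressed from the paternal allele, was near the top of the intensity range. Its reference probe (A_23_P150609, chr11:2106970-2107029) read 17.93 on each pre-control array and 17.90, 17.74 and 17.90 on the pre-miR-27a arrays. The identical control values came from the normalisation: exactly 5 spots were brighter on each pre-control array, and spots of 1 rank are given 1 value. On the pre-miR-27a arrays 6, 14 and 6 spots were brighter. The log2 fold change was −0.08 (SE 0.08, 95% confidence interval −0.28 to 0.11, adjusted p = 0.578, limma), with the groups apart by a small margin. Because the pre-control values were tied by rank (SD 0), these limma values do not measure the spread between pre-control arrays.

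Before normalisation the IGF2 probe read 18.17, 18.05 and 18.07 with pre-control and 17.74, 17.66 and 17.68 with pre-miR-27a. The groups were then apart by more than their spread, with means of 18.10 ± 0.06 and 17.69 ± 0.04 (SD, n = 3). Scaling each array to its 75th percentile gave 18.03 ± 0.03 and 17.76 ± 0.09, a log2 fold change of −0.27 (SE 0.09, adjusted p = 0.108, limma). All 3 scales placed every pre-miR-27a array under every pre-control array. The size ran from 0.08 to 0.41 on the log2 scale, with 0.41 from values that were not normalised. Normexp background correction gave −0.035 (adjusted p = 0.838, limma) and the authors' table −0.13 (adjusted p = 0.463, limma). Before normalisation the bright IGFBP2 probe was also lower with pre-miR-27a, at 17.01 ± 0.06 and 16.58 ± 0.12 (SD, n = 3). The raw fall was thus not particular to IGF2.

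The other IGF2 probe (A_23_P421379, chr11:2110978-2111330) read 13.76, 13.27 and 13.32 with pre-control and 13.92, 13.61 and 13.45 with pre-miR-27a, and the groups overlapped. Its log2 fold change was 0.21 (SE 0.19, adjusted p = 0.549), so the 2 IGF2 probes had opposite signs and neither was called. The RefSeq accession of the array design is NM_001007139 for the reference probe and NM_000612 for the other.

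**Figure D3:**
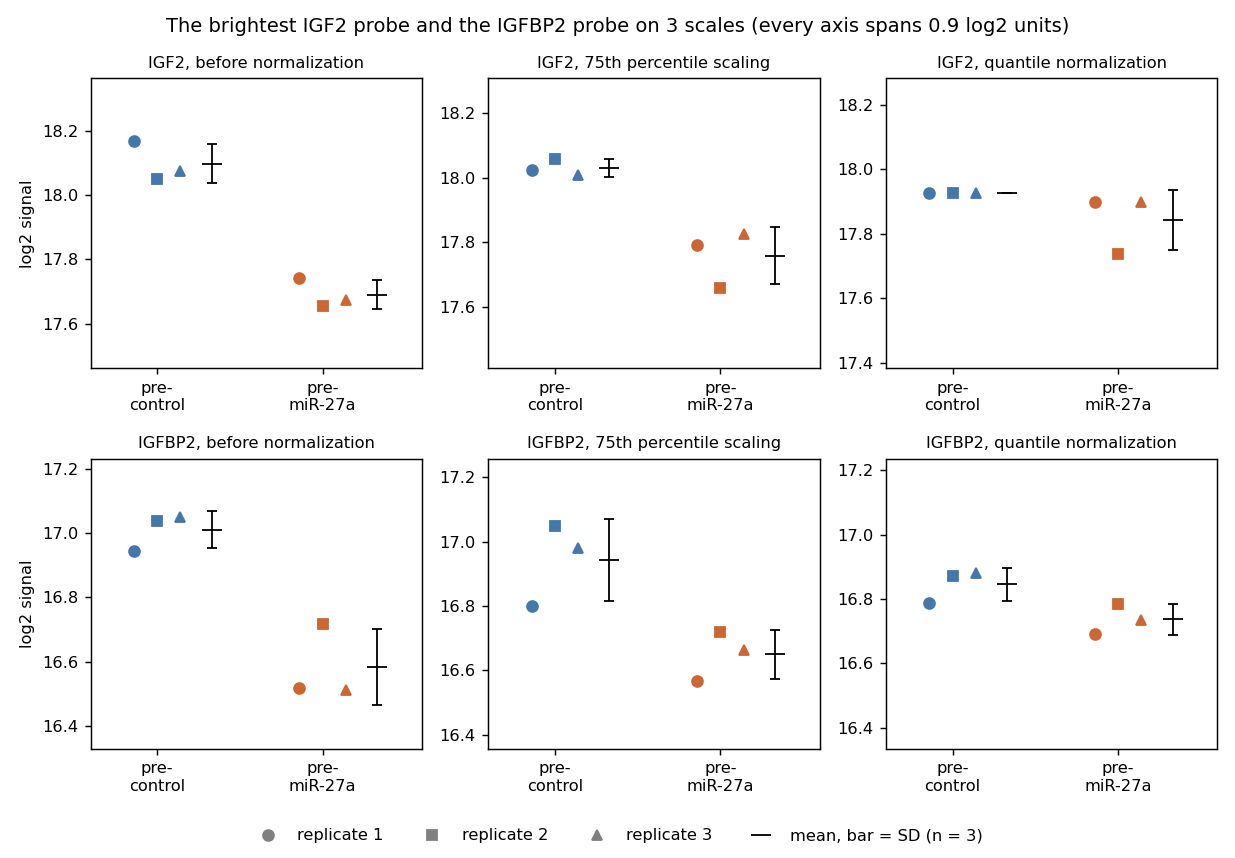
Log2 intensity of the IGF2 and IGFBP2 reference probes on the 6 arrays before normalisation, after quantile normalisation and after scaling to the 75th percentile. Every pre-miR-27a array lies under every pre-control array on all 3 scales, and the gap is smallest after quantile normalisation.

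Among the receptors, IGF1R, the kinase that transmits the IGF signal, showed no called difference. Its reference probe (A_23_P417282, chr15:97324889-97324948) read 11.41, 11.30 and 11.65 with pre-control and 11.31, 11.33 and 11.49 with pre-miR-27a. The groups overlapped, and the log2 fold change was −0.08 (SE 0.12, interval −0.37 to 0.22, adjusted p = 0.742).

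The IGF1R probe A_23_P205986, which lies at chr15:97318690-97318749 and is printed in 10 spots, differed from it. It read 6.83, 6.80 and 7.30 with pre-control and 7.29, 7.39 and 7.58 with pre-miR-27a, with a log2 fold change of 0.45 (SE 0.17, interval 0.03 to 0.86, adjusted p = 0.176). It was higher in all 3 same-numbered pairs, although the lowest pre-miR-27a value was just under the highest pre-control value. The remaining IGF1R probe (A_23_P305680) passed that background test on 0 of 6 arrays.

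The reference probe stood above A_23_P205986 by 4.58, 4.50 and 4.36 log2 units on the pre-control arrays and by 4.03, 3.94 and 3.90 on the pre-miR-27a arrays. These differences within an array do not depend on a scaling factor for the array, but can depend on background, which was lower on the pre-miR-27a arrays. With normexp background correction the log2 fold changes of the reference probe and A_23_P205986 were −0.07 and 0.31. Without it the differences within an array did not overlap between the groups. The group means differed by −0.53 (−0.52 after 75th percentile scaling), with an exact two-sided permutation p of 0.1, the smallest that 3 arrays against 3 can give (adjusted p = 0.25 over the 5 genes compared). In the same measure the group means differed by −0.30 for IGF2, −0.11 for IGF2R, −0.10 for IGFBP5 and 0.09 for IGFBP3. IGFBP3 also did not overlap (exact permutation p = 0.1, adjusted p = 0.25), but its difference was −0.0091 after 75th percentile scaling.

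**Figure D4:**
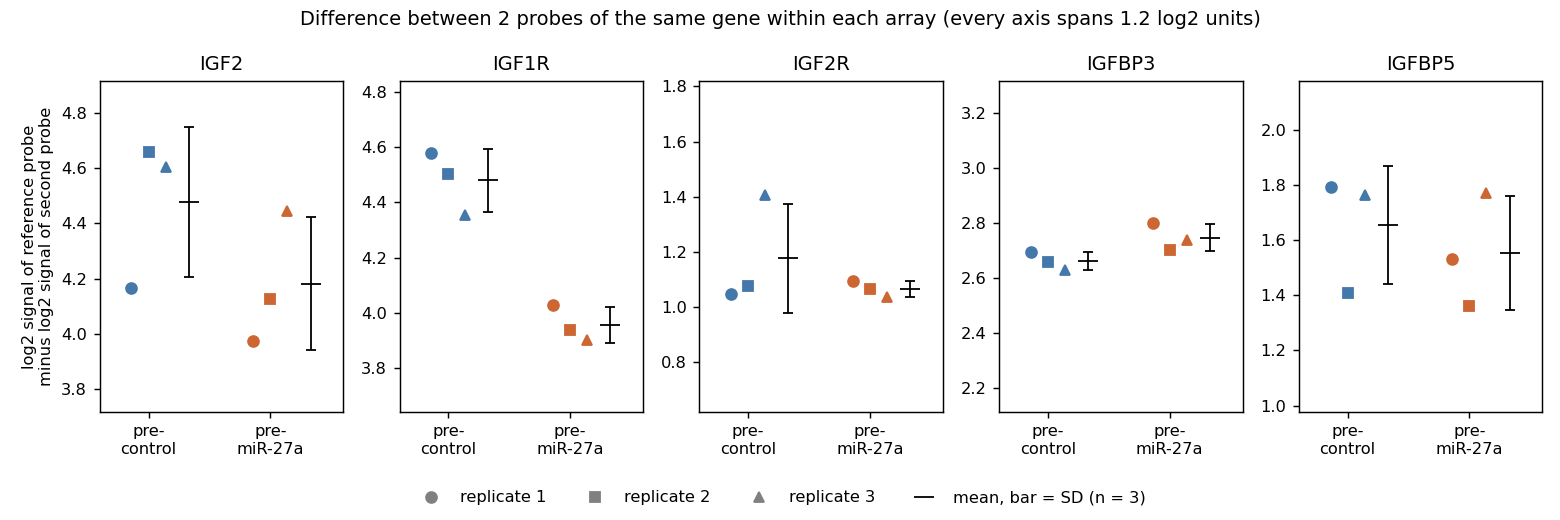
Difference in log2 intensity between the reference probe and the other probe of the same gene on each array, for the 5 member genes with a pair of probes above background, with a marker shape for each replicate number and the group mean with its SD. The 3 IGF1R values with pre-miR-27a (3.90 to 4.03) lie below the 3 with pre-control (4.36 to 4.58).

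IGF2R, the receptor that clears IGF2 and carries lysosomal enzymes, had 2 probes that lay higher with pre-miR-27a without passing the threshold. The reference probe (A_23_P334021, chr6:160447104-160447163) read 13.07, 12.69 and 13.03 with pre-control and 13.37, 13.30 and 13.34 with pre-miR-27a. Its group means were 12.93 ± 0.21 and 13.34 ± 0.04 (SD, n = 3), a log2 fold change of 0.41 (SE 0.12, adjusted p = 0.111, limma). The probe A_23_P156953, at chr6:160446186-160446245, read 12.02, 11.61 and 11.63 and then 12.28, 12.24 and 12.30, a log2 fold change of 0.52 (SE 0.13, adjusted p = 0.073).

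For both IGF2R probes every pre-miR-27a array was above every pre-control array, and the pre-control arrays varied more than the pre-miR-27a arrays. The probe A_23_P156953 passed the threshold in 2 alternatives. With only probes well above background kept its adjusted p was 0.0438, and without pre-control replicate 1, its highest pre-control array, the log2 fold change was 0.65 (adjusted p = 0.0424, limma).

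INSR, the insulin receptor, read 7.76, 7.80 and 7.49 with pre-control and 8.04, 8.20 and 7.57 with pre-miR-27a (A_23_P4764, chr19:7067899-7067958). Replicate 3 was the lowest array of both groups and the groups overlapped. The log2 fold change was 0.25 (SE 0.19, adjusted p = 0.476).

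Among the binding proteins, IGFBP6, which binds IGF2 with a marked preference over IGF1, was the only member called. It read 8.87, 8.74 and 8.91 on the pre-control arrays and 8.20, 8.24 and 8.44 on the pre-miR-27a arrays (A_23_P139912, chr12:51781120-51781179). Every pre-miR-27a array was under every pre-control array. The means were 8.84 ± 0.09 and 8.29 ± 0.13 (SD, n = 3), a log2 fold change of −0.55 (SE 0.10, interval −0.79 to −0.30, adjusted p = 0.0363, limma), which is 1.46-fold lower.

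The IGFBP6 difference was −0.66, −0.50 and −0.48 in the 3 same-numbered pairs. In RNA of whole cultures, fewer cells that express IGFBP6 and less of its mRNA per cell cannot be told apart. The call was lost after 75th percentile scaling (−0.49, adjusted p = 0.0655) and without any 1 of the 6 arrays (−0.62 to −0.50, adjusted p from 0.0756 to 0.121), with the direction kept in each. Leaving out an array also lowered the number of all probes called, 2856 with every array: 1276 were called without pre-control replicate 1, 81 without pre-control replicate 3, and 0 without each of the other 4 arrays, where at least 7178 probes had an unadjusted p under 0.05.

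IGFBP2, a binding protein abundant in fetal tissue, read 16.79, 16.87 and 16.88 with pre-control and 16.69, 16.78 and 16.73 with pre-miR-27a (A_23_P119943, chr2:217237331-217237390). The groups were apart by a narrow margin, and the log2 fold change was −0.11 (SE 0.07, adjusted p = 0.429). The size moved with the scaling: 75th percentile scaling gave −0.29 (SE 0.11, adjusted p = 0.127).

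IGFBP3, the main carrier of IGFs in blood, lay higher with pre-miR-27a in each same-numbered pair, by 0.80, 0.36 and 0.42. Its reference probe (A_23_P215634, chr7:45919133-45919192) read 12.35, 12.36 and 12.90 with pre-control and 13.15, 12.73 and 13.32 with pre-miR-27a. The groups overlapped, since pre-control replicate 3 was above pre-miR-27a replicate 2, and the log2 fold change was 0.53 (SE 0.22, adjusted p = 0.217). The probe is printed in 10 spots, with an SD within an array of only 0.03 to 0.06, so the spread between arrays was far larger than that between spots.

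The other IGFBP3 probe (A_24_P320699) had the same order of arrays. It read 9.66, 9.71 and 10.27 and then 10.35, 10.02 and 10.58, a log2 fold change of 0.44 (SE 0.22, adjusted p = 0.293). Replicate 3 was the highest array of each group in both IGFBP3 probes.

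IGFBP4, which mostly restrains IGF action until a protease cuts it, read 9.23, 9.41 and 9.57 with pre-control and 9.08, 9.10 and 9.28 with pre-miR-27a (A_24_P382187, chr17:35866834-35866893). It lay lower in all 3 same-numbered pairs, but pre-miR-27a replicate 3 was above pre-control replicate 1. The log2 fold change was −0.25 (SE 0.12, adjusted p = 0.258).

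IGFBP5, a binding protein of muscle and bone, varied most between replicates among the genes above background. Its reference probe (A_23_P383009, chr2:217245412-217245471) read 10.24, 8.99 and 9.72 with pre-control and 10.00, 9.14 and 9.59 with pre-miR-27a. Replicate 1 was high and replicate 2 low in both groups. The log2 fold change was −0.07 (SE 0.37, adjusted p = 0.932), and no other member above background had as large an SE.

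The probe A_23_P154115 for IGFBP5 gave 0.03 (SE 0.29, adjusted p = 0.968). When the replicate number was a block, the SE of the reference probe was 0.10, with an adjusted p of 0.634. The remaining IGFBP5 probe (A_23_P376497) was well above background on all 6 arrays but marked as not found on 3 and was removed. With it kept, its log2 fold change was −0.09 (SE 0.25, adjusted p = 0.875).

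Across the 18 probes, 7 were higher with pre-miR-27a in all 3 same-numbered pairs (IGF2R and IGFBP3 with both probes, INSR, and 1 probe each of IGF2 and IGF1R), and 4 were lower in all 3 (IGF2, IGFBP2, IGFBP4 and IGFBP6, each by its reference probe). These are 38.9% and 22.2% of the member probes, beside 25.6% and 29.2% of all probes. When the fit took the replicate number as a block, the number of members called stayed at 1, IGFBP6, while 13.5% of all genes by reference probe were called (5.45% higher and 8.06% lower), as were 14.9% of all probes.

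For 3 members the genes with the most similar values over the 6 arrays were looked up among 12791 genes, by Pearson's r between reference probes, as a description of 6 points that share slides. For IGF2 they were RPL12P1 (r = 0.9722) and PGAP3 (r = 0.9701), and here the ties in the IGF2 values limit the measure. For IGF1R they were TBC1D13 (r = 0.9962) and CNTNAP3 (r = 0.9831), and for IGFBP5 PTPRH (r = 0.9978) and MAMDC2 (r = 0.9966).

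Of 47 other genes of the pathway, 43 were kept, of which 40 were well above background on all arrays. By reference probe 4 were called higher, 1 lower and 38 were not called, beside 6.65% called over all genes, and the median log2 fold change was 0.09. In the fit blocked on the replicate number, 8 were called higher and 2 lower, against 5.45% and 8.06% of all genes. By role, 1 of 8 extracellular regulators, 1 of 9 adaptors and receptor phosphatases, 1 of 11 genes of the PI3K and AKT group and 2 of 4 mRNA-binding and locus neighbours were called. The PI3K and AKT group had a median log2 fold change of 0.33, and 5 of its genes passed with the block. The 10 genes of the mTOR arm had a median of −0.05, and 1 of them, EIF4EBP1, passed with the block only.

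PIK3R3, a regulatory subunit of PI3K, was higher by 1.25 (SE 0.10, adjusted p = 0.0176), reading 9.84, 9.93 and 10.13 with pre-control and 11.30, 11.17 and 11.20 with pre-miR-27a. The other PIK3R3 probe read −0.04 (adjusted p = 0.906), so the rise was seen at 1 of its 2 probes. PIK3R1, the main regulatory subunit, had a log2 fold change of 1.19 (SE 0.30, adjusted p = 0.0724) and passed with the block (adjusted p = 0.0334), while its other probe gave 0.80 (adjusted p = 0.171, and 0.123 with the block). PIK3CB, a catalytic subunit, and PDPK1, which activates AKT, had log2 fold changes of 0.51 and 0.33 and also passed with the block alone. The other PDPK1 probes gave 0.15 and 0.26, and did not pass with it (adjusted p = 0.14 and 0.0719).

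IGF2BP3 and IGF2BP1 bind IGF2 mRNA among many others and are oncofetal proteins. IGF2BP3 was higher by 1.05 (SE 0.11, adjusted p = 0.0176), reading 12.40, 12.10 and 12.31 with pre-control and 13.41, 13.28 and 13.27 with pre-miR-27a. IGF2BP1 was higher by 0.90 (SE 0.10, adjusted p = 0.0176) at its reference probe, and its other probe gave 0.10 (adjusted p = 0.628). IGF2BP2, on the same list, was not called, with overlapping groups and a log2 fold change of 0.21 (SE 0.15, adjusted p = 0.436). H19, the non-coding neighbour of IGF2 in the imprinted locus, gave −0.16 (SE 0.48, adjusted p = 0.876).

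PTPN1, a phosphatase that removes phosphate from the insulin and IGF1 receptors, was higher by 0.56 (SE 0.10, adjusted p = 0.0353). INS, the insulin gene beside IGF2, read 6.30, 6.08 and 6.09 with pre-control and 5.41, 5.50 and 5.19 with pre-miR-27a, a log2 fold change of −0.79 (SE 0.12, adjusted p = 0.0241). The 2 genes lie next to each other, and which transcripts this probe reads was not tested. With normexp background correction the INS difference was −0.49. Each of the 5 called genes kept its call in the 9 limma fits by probe that used all arrays. SAM at 1.9% called IGF2BP1, IGF2BP3 and PIK3R3 of them, and SAM at 5% all but PTPN1. With the mean of a gene's probes PIK3R3 (0.61, adjusted p = 0.0501) and IGF2BP1 (adjusted p = 0.344, with its dimmer probe missing on 1 array) were not called, and 4 pathway genes were called in all. Leaving out 1 array, PIK3R3 was called in 2 of 6 cases, IGF2BP1, IGF2BP3 and PTPN1 in 1 of 6 and INS in 0 of 6.

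**Figure D5:**
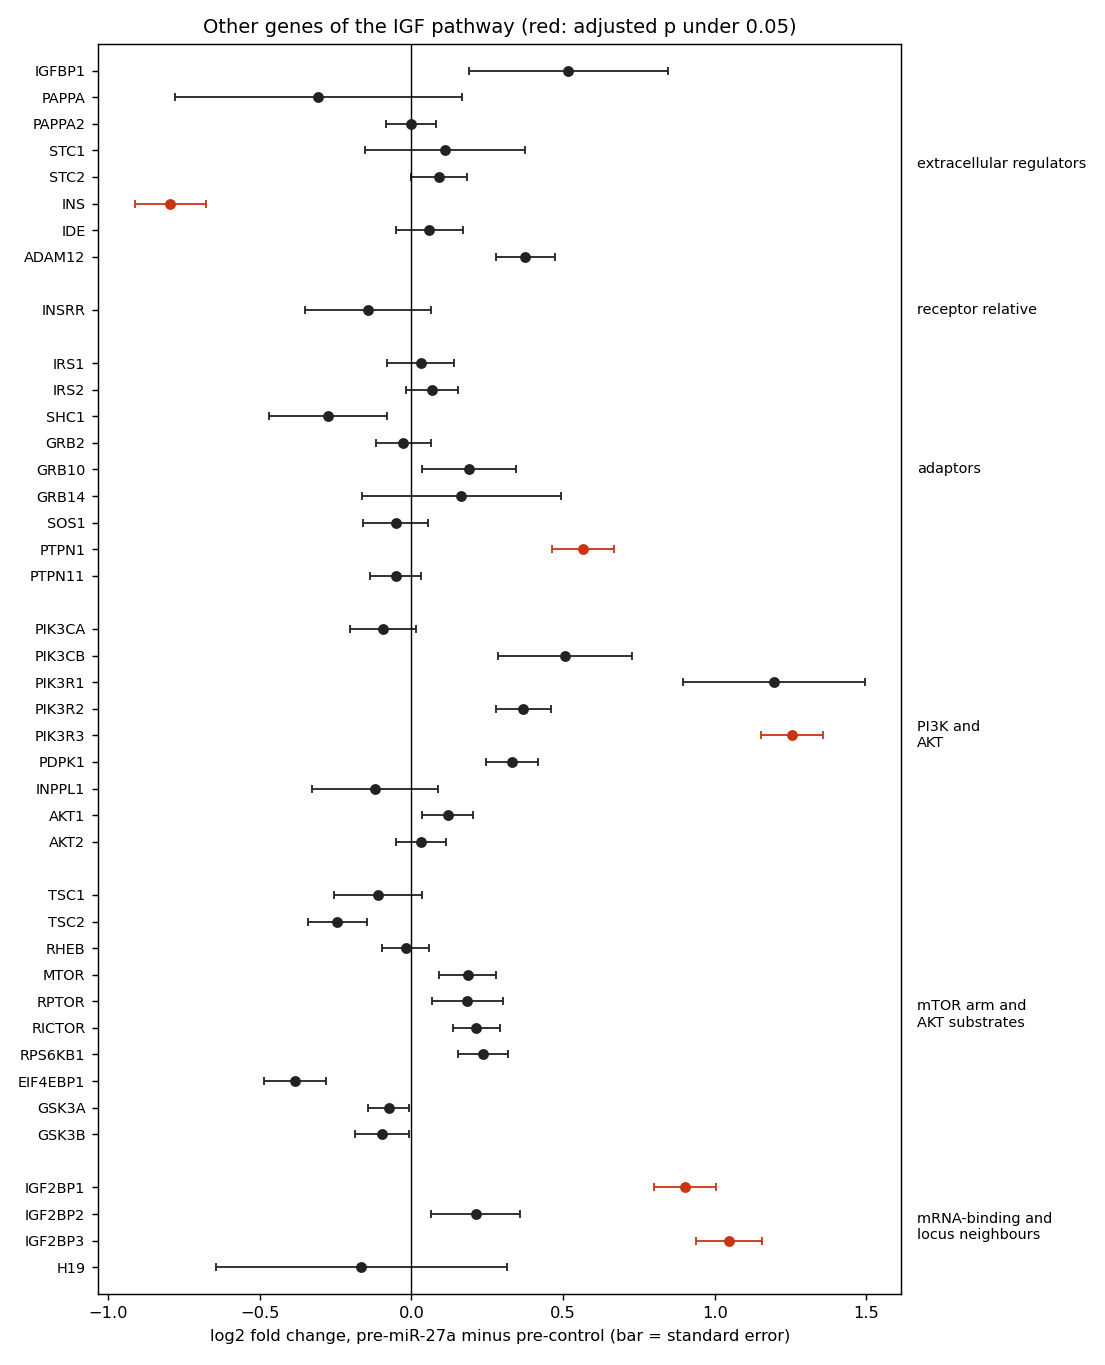
Log2 fold change (pre-miR-27a minus pre-control) of the reference probes of 41 pathway genes, grouped by role, with bars of 1 standard error and red for an adjusted p under 0.05 from limma. The called genes are PIK3R3, IGF2BP3, IGF2BP1 and PTPN1 above 0 and INS below 0.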

How the data were processed

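RNA of 6 RH36 cultures was labelled with Cy3 on Agilent whole human genome arrays (1 colour). The deposited scanner files hold spot intensity values that the authors made with Feature Extraction 10.5.1.1, already background-subtracted. Positions follow the array design (hg18), and no annotation of that build was used here, so exons are not named. The authors' own deposited log2 table, quantile-normalised, was used only as an alternative. Intensity was taken to log2, quantile-normalised between arrays, spots marked not found were set to missing, replicate spots were averaged, and probes missing on more than 1 of 6 arrays were removed (36469 of 41000 kept). No pseudocount was used. Differences were tested with limma 3.58.1 in R 4.3.3 without a replicate block, and p-values were adjusted over all probes kept (Benjamini-Hochberg, threshold 0.05). SAM, which the methods name, was written out in R as an unpaired test with 20 relabellings. It called 411 probes at 1.9%, fewer than the genes the study reported, so the authors' calls were not reproduced. Figures were drawn with matplotlib 3.10.9 in Python 3.11.15. With 3 arrays a group the precision was limited, with a median SE of 0.14 for a log2 fold change. The model was also run on simulated data that held no effect of the slide, so that run does not bear on the shared slides of these arrays.

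Same-numbered arrays deviated together (r = 0.40, 0.46 and 0.41 over 31717 probes, and −0.27 to −0.12 for the other pairings). The replicate number was therefore taken as a pairing in the blocked fit and the same-numbered differences, but not in the main fit. It is also the position on the slide. SEs, intervals and adjusted p-values are from the main fit unless another setting is named. With the block the SE was smaller for every member probe kept. After IGFBP6 the lowest adjusted p with the block was 0.0532 (IGF1R A_23_P205986, limma).

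Members and gene lists were chosen with earlier results of these data known. The text names all 10 members with their probes, the pathway genes called by their reference probe (at most 8 each way), and for IGF2, IGF1R and IGFBP5 the 2 genes most correlated over the arrays. Genes that passed only with the block were named in addition, as were H19 and IGF2BP2, which were not called. Of the pathway list, 2 genes enter the counts but are not reported here. The settings tried were scaling to the 75th percentile, background correction by normexp (offset 50), keeping dim probes, keeping only probes that were well above background, the authors' table, SAM at 1.9% and 5%, the block, a variance trend with robust estimation, the mean of a gene's probes, and leaving out each array. A filter on the positive and significant flag and the removal of outlier spots were added after seeing the data. The 3′ UTRs, probe sequences and proteins of the members were not analysed here.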

Additional observations from a re-analysis of the deposited data

How the results depend on the processing

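The number of member probes called, 1, went to 0 after 75th percentile scaling (limma; 5 of 18 had an unadjusted p under 0.05, as did 32.1% of all probes) and with SAM at 1.9% and 5%. With only probes well above background kept it was 2 of 15. In that setting 13.7% of all probes were called, against 7.83% in the main fit. Leaving out 1 array gave 0 to 1, and that 1 was IGF2R A_23_P156953, higher without pre-control replicate 1, and not IGFBP6. The number of member genes called, 1, went to 0 after 75th percentile scaling (4 with an unadjusted p under 0.05) and with SAM at both rates, and was 0 without any 1 array (1 to 3 with an unadjusted p under 0.05). The number of pathway genes called, 5, was 10 with the replicate block and 7 with normexp. It was 6 with only probes well above background kept and 6 with the variance trend and robust estimation. In these 4 settings 14.9%, 9.67%, 13.7% and 9.26% of all probes were called, against 7.83% in the main fit. The pathway count was 3 with SAM at 1.9% (1.3% of the probes it tested) and 4 with the mean of a gene's probes. Without 1 array it was 0 to 4, where 0% to 3.5% of all probes were called. The pairing by replicate block changed no other call among the members. Signs turned only for values near 0 or dim probes. For IGF1, whose values near background are not read as fold changes, the difference at A_23_P13907 was −0.12 after 75th percentile scaling, −0.23 in the authors' table and −0.018 with the positive and significant flag. At A_24_P304419 it was −0.14 and at A_24_P304423 −0.16 after 75th percentile scaling. IGFBP5 A_23_P154115 gave −0.014 with normexp. Without 1 array, the differences ran from −0.22 to 0.66, −0.30 to 0.51 and −0.019 to 0.68 for these IGF1 probes, −0.16 to 0.021 for IGF1R A_23_P417282, −0.40 to 0.22 for IGFBP5 A_23_P383009 and −0.20 to 0.25 for A_23_P154115. The cause of these moves was not tested.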
